A study of Mus musculus with 6 samples.

Results

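The 9 genes described here encode proteins of plasminogen activation, blood coagulation and endothelin signalling: Plau, Plaur, Serpinb2, F3, F7, F10, F13a1, Thbs1 and Edn1. They were taken from a count table of 26519 mouse genes by matching the Ensembl identifier to the symbol, and all 9 were found. The table comes from RNA sequencing of dendritic cells that had infiltrated MC38 tumours, a mouse colon carcinoma line, and were isolated on day 10 after inoculation. There were 3 samples from MAVS KO hosts and 3 from WT hosts, so the groups differ in the genotype of the host, while the inoculated tumour line was the same. MAVS sits on mitochondria and relays the signal of RIG-I and MDA5 once these bind viral or other foreign RNA. Strain, age, sex, sorting gate and the way the Mavs gene was altered are not in the labels. Nothing says that replicates are separate animals, so the p-values reflect the spread between the samples at hand, which may be technical.

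Urokinase, encoded by Plau, cuts plasminogen into plasmin, the protease that dissolves fibrin, and it does so bound to its receptor, encoded by Plaur. Coagulation outside the vessel wall starts when tissue factor (F3) binds factor VII (F7), which activates factor X (F10); thrombin then makes fibrin, and factor XIII cross-links it. Macrophages and monocytes are known to make several of these proteins, whereas most other clotting factors come from the liver. Endothelin-1 (Edn1) is a peptide made mainly by endothelial cells, and also by activated macrophages and dendritic cells, which constricts vessels and acts on nearby cells.

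Because the 9 genes were proposed with the MAVS KO against WT contrast of these libraries already known, their differences are given as a description. The promoters of the 5 genes that were higher in MAVS KO libraries are shown here, since these genes moved in the same direction. RefSeq's table (GRCm38.p6) held a promoter for 7 of the 9 genes, namely Serpinb2, Plaur, F3, F7, F10, F13a1 and Edn1. Each sequence is the 250 bases before the RefSeq start of the gene, 5′ to 3′, and the capitals mark the AP-1 letters TGANTCA, the TATA box letters TATAAA and the core of the hypoxia response element, ACGTG, on either strand.
Serpinb2 (chr1:107511173-107511422, plus strand): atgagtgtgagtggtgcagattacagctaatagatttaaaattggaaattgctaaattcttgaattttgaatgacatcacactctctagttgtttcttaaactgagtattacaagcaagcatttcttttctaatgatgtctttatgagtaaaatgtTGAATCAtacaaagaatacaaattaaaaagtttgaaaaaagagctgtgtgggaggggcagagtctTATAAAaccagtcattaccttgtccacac
F3 (chr3:121723287-121723536, plus strand): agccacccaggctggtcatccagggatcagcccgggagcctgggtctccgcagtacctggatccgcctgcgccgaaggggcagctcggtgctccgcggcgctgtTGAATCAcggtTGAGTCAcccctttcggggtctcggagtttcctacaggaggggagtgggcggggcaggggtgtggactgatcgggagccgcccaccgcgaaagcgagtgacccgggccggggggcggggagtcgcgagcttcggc
F7 (chr8:13025784-13026033, plus strand): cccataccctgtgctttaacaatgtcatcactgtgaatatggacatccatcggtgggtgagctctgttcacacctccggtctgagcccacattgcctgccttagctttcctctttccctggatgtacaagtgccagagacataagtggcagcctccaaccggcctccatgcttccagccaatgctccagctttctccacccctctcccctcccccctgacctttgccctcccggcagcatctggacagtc
F10 (chr8:13037058-13037307, plus strand): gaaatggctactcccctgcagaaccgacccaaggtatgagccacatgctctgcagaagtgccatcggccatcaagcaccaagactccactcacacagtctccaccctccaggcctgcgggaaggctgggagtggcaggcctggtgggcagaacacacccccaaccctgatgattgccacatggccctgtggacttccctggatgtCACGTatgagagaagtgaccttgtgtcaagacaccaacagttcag
Edn1 (chr13:42301226-42301475, plus strand): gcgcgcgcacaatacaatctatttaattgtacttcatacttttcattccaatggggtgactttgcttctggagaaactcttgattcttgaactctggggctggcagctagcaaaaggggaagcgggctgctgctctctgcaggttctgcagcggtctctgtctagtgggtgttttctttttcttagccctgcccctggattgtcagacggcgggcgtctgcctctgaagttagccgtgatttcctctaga

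Serpinb2 held 1 AP-1 match, 94 bases before its start, and a TATA box 29 bases before it. F3 held 2 AP-1 matches, 146 and 135 bases before its start, and Plaur, which is not printed, held 1 at 69 bases. Of all 27025 genes with such a promoter, 6.87% held TGANTCA and 13% held TATAAA. The hypoxia core was found in F10 alone among the 7 promoters, 45 bases before its start, against 16.6% of all promoters. The GC box GGGCGG was found 3 times in F3 and 3 times in Plaur, against 32.9% of all promoters with at least 1. F7, F13a1 and Edn1 held none of these letters. None of the 7 held the letters AGATAA, known for the GATA family and present in 10.3% of all promoters, or TTCNNNGAA, the GAS element bound by STAT proteins, present in 7.18%. These are matches of letters in this window, and neither a match nor its absence says whether a factor binds. None of the motifs' matches overlapped another motif's. The base composition also differed, with G or C at 32.4% of the Serpinb2 promoter and 70% of the F3 promoter.

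Library totals were 14466640 to 18862534 counts in MAVS KO and 17357031 to 20851733 counts in WT samples. Genes with at least 1 count numbered 20530, 16299 and 15635 in MAVS KO replicates 1 to 3, against 20082, 16947 and 21432 in WT replicates 1 to 3. MAVS KO replicate 1 therefore stood with WT replicates 1 and 3, and MAVS KO replicates 2 and 3 with WT replicate 2. The labels do not explain this split, which is used below to recompute the differences within each set. Each set holds 1 library of a genotype against 2 of the other. Where the groups of a gene do not overlap, the direction within a set cannot differ from the whole. The values within the sets are therefore a description and no check. The split coincided with library totals. Those with more genes detected had 18862534, 19201453 and 20851733 counts (MAVS KO replicate 1, WT replicates 1 and 3). Those with fewer had 15897590, 14466640 and 17357031 counts (MAVS KO replicates 2 and 3, WT replicate 2). Whether depth accounts for the split was not tested. Mavs itself stood at 8.99, 12.8 and 9.45 CPM (read counts divided by TMM-scaled library size, per megaread) in MAVS KO libraries, against 33.9, 39.7 and 39.7 CPM in WT libraries. Every library thus matched its label, with a log2 fold change of -1.86 (SE 0.18) and an adjusted p of 0.00170 in edgeR's quasi-likelihood test. The antigen-presenting molecule H2-Ab1 stood at 14568 to 17718 CPM in MAVS KO and 14791 to 16703 CPM in WT libraries. The other dendritic cell markers were far lower, with means over 6 libraries from 7.32 CPM (Clec9a) to 269 CPM (Itgax). Flt3, Xcr1 and Zbtb46 averaged 31.2, 21.4 and 14.4 CPM. Of 8 dendritic cell markers Flt3, Zbtb46, Xcr1 and Cd209a fell and Ccr7 rose (adjusted p under 0.05, edgeR's quasi-likelihood test over all genes). The macrophage transcript Lyz2 stood at 19241 to 27284 CPM in MAVS KO and 19007 to 23584 CPM in WT libraries. The other macrophage and monocyte markers had means over 6 libraries from 12.5 CPM (Ly6c2) to 2423 CPM (C1qb), with Csf1r at 1321 CPM. The share of macrophages among the isolated cells was not tested. Of 10 macrophage and monocyte markers 0 passed in edgeR and DESeq2 called 3. In edgeR 5 had an unadjusted p under 0.05, all higher in MAVS KO libraries, and Lyz2 was not among them. In bulk RNA, fewer cells of a type and less RNA per cell cannot be told apart.

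In MAVS KO libraries, Serpinb2, F3, Edn1, F7 and F10 stood higher than in WT libraries and Thbs1 stood lower, while Plaur, F13a1 and Plau were not called. That is 5 of the 9 genes called higher and 1 called lower at an adjusted p under 0.05, in a fit over 12580 genes in which 1.76% were called higher, 1.05% lower and 2.81% either way. All 9 genes passed the filter on low counts. The median log2 fold change of the 9 was 0.68, with 7 positive and 2 negative, beside -0.0022 over all genes tested. For 6 genes every MAVS KO library lay above every WT library, and for 1 every MAVS KO library lay below, against 11.2% and 10.6% of all genes tested (21.8% together). Since the genes were proposed from this contrast, nothing is read from these counts.

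**Figure D1:**
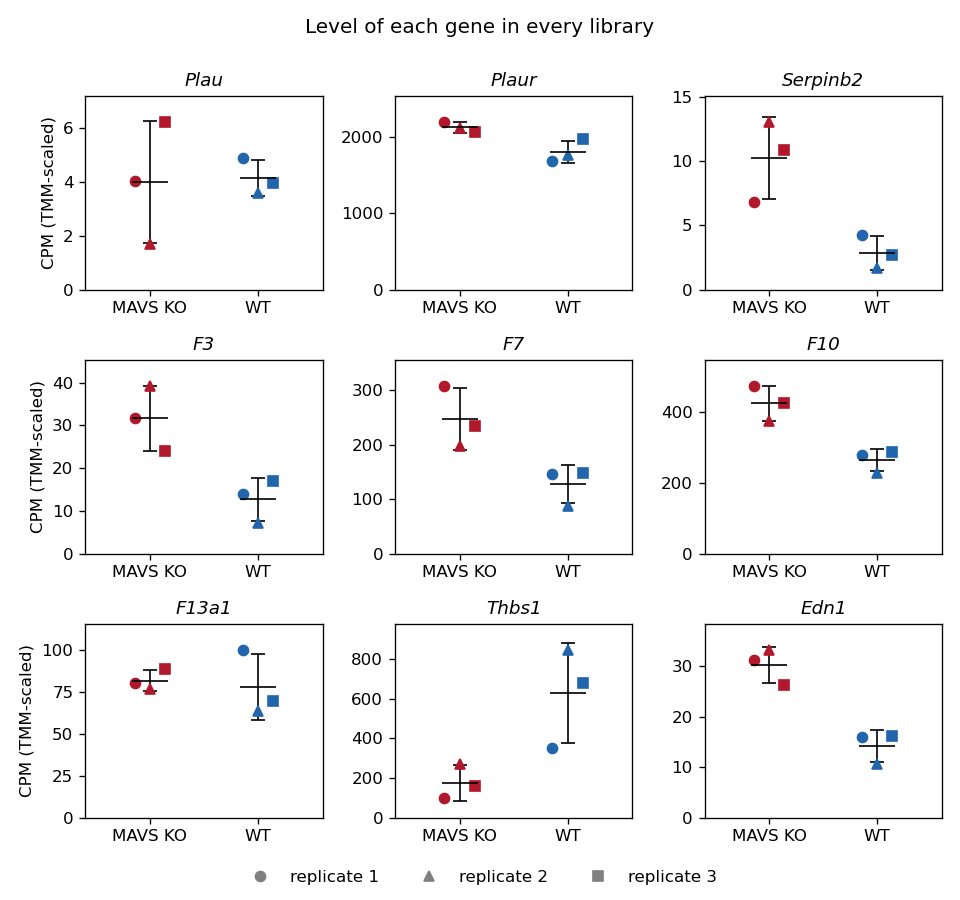
TMM-scaled CPM of each of the 9 genes in every library, MAVS KO on the left and WT on the right, with a panel and a linear axis from 0 for each gene. Points are libraries, marked by replicate number, and the bar and whiskers give the mean and SD of 3 libraries. The groups overlap only for Plau and F13a1.

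The number of called genes depended on single libraries. Of the 9 genes, 0 were called without MAVS KO replicate 1, 1 without MAVS KO replicate 2 (Thbs1) and 0 without MAVS KO replicate 3. Leaving out WT replicate 1 left 4 called, WT replicate 2 left 1 (Edn1) and WT replicate 3 left 3. Over all genes, those fits called 36 to 277, against 354 in the main fit. In them edgeR's unadjusted p was under 0.05 for 6 or 7 of the 9 genes. Nothing is read from that, since the genes were proposed from this contrast. With DESeq2 and with limma-voom 6 of 9 were called, as in the main analysis, beside 772 and 319 of all 12580 genes.

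**Figure D2:**
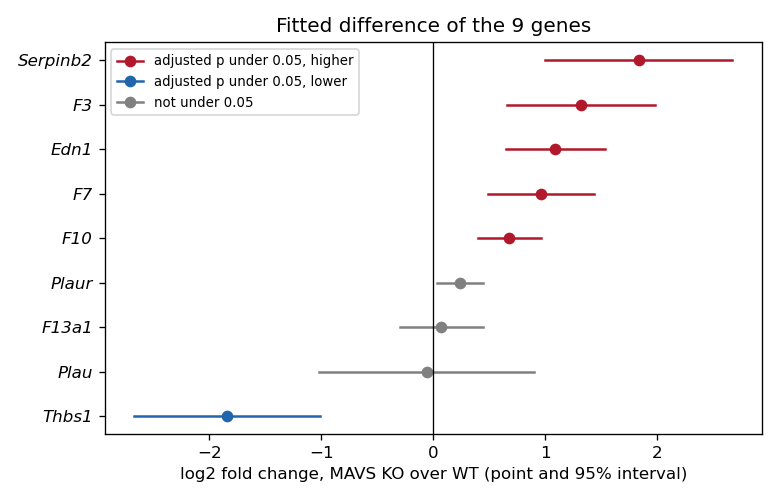
Fitted log2 fold change of the 9 genes, MAVS KO over WT, with the 95% interval of the edgeR fit, ordered from highest to lowest. Serpinb2 has the highest value at 1.84 and Thbs1 the lowest at -1.84, and the interval of F7 (0.49 to 1.44) overlaps those of F3, Edn1 and F10.

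In plasminogen activation, the receptor was abundant and its ligand was scarce in both groups. Plaur (ENSMUSG00000046223, chromosome 7, 24462484 to 24475968 in mm10), the membrane-anchored urokinase receptor, stood at 2206, 2127 and 2065 CPM in MAVS KO libraries, against 1684, 1768 and 1973 CPM in WT libraries. The MAVS KO libraries lay close together and all above the WT libraries, although the lowest MAVS KO and the highest WT value were near each other. The fitted log2 fold change was 0.24 (SE 0.09, 95% interval 0.03 to 0.44), and Plaur was not called over all genes.

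Plau (ENSMUSG00000021822, chromosome 14, 20836660 to 20843385), the urokinase protease, stood at 4.04, 1.68 and 6.23 CPM in MAVS KO libraries, against 4.88, 3.58 and 3.96 CPM in WT libraries. These came from 72, 25 and 85 counts in MAVS KO and 99, 67 and 86 counts in WT libraries. The MAVS KO libraries held both the highest and the lowest value of the 6, so the groups overlapped fully. Its log2 fold change was -0.06 (SE 0.43), and the 95% interval from -1.02 to 0.90 leaves room for changes of nearly 2-fold in either direction. Per kilobase of merged exons, Plaur exceeded Plau 299.9 to 1148 times in MAVS KO and 312 to 451 times in WT libraries.

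Serpinb2 (ENSMUSG00000062345, chromosome 1, 107511423 to 107535478) encodes plasminogen activator inhibitor 2, a clade B serpin that inhibits urokinase and is strongly induced in activated macrophages. It stood at 6.80, 13.1 and 10.9 CPM in MAVS KO libraries, against 4.24, 1.66 and 2.67 CPM in WT libraries. MAVS KO replicate 1 was the lowest of its group and WT replicate 1 the highest of its own, and the groups did not overlap. Its fitted log2 fold change was 1.84 (SE 0.38, 95% interval 1.00 to 2.67), the highest of the 9 genes, from 121, 195 and 149 counts in MAVS KO and 86, 31 and 58 counts in WT libraries.

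Relative to Plau, Serpinb2 was 1.69 to 7.86 times as abundant per kilobase in MAVS KO libraries and 0.466 to 0.875 times in WT libraries. Thus the inhibitor exceeded the protease in every MAVS KO library and in no WT library, as a ratio of transcript levels. With the set of libraries as a covariate, an alternative chosen after seeing the data, the log2 fold change of Serpinb2 was 1.85 (SE 0.46) and it was no longer called. Counting that one, the call of Serpinb2 was lost under 6 of 16 alternatives. Within the sets, on the scale log2(CPM + 0.5), MAVS KO minus WT was 0.91 for the libraries with more genes detected (1 MAVS KO, 2 WT) and 2.53 for those with fewer (2 MAVS KO, 1 WT).

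Among the other genes of plasminogen activation, receptors were the most abundant. Of 11 listed genes (without the 3 above) 8 were tested and none passed. The edgeR adjusted p was under 0.05 for 0 of them and the unadjusted p for 2, Lrp1 and Plgrkt; DESeq2 called 1 (Plgrkt) and limma-voom 0. Anxa2, which with S100a10 forms a cell-surface binding site for plasminogen, stood at 2925 to 3112 CPM in MAVS KO and 2389.8 to 2832 CPM in WT libraries. S100a10 itself stood at 488 to 608 CPM in MAVS KO and 470.4 to 619 CPM in WT libraries. For Plgrkt, a plasminogen receptor of the membrane, the log2 fold change was 0.48 (SE 0.12, edgeR adjusted p = 0.0572). Lrp1, the endocytic receptor that clears protease and inhibitor complexes, had 0.32 (SE 0.13, edgeR adjusted p = 0.243).

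The substrate of the pathway was near the limit of detection. Plg, plasminogen itself, was listed at 0 in MAVS KO replicates 2 and 3 and in WT replicates 2 and 3, and it reached at most 0.225 CPM. The second activator, Plat, did not pass, at 5.79 to 12.3 CPM in MAVS KO and 8.60 to 9.96 CPM in WT libraries (edgeR adjusted p = 0.963).

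Serpinb2 lies in a cluster of clade B serpins on chromosome 1, and the nearest tested genes on either side did not pass. Serpinb12 had a fold change on the log2 scale of -0.14 (SE 0.41, edgeR adjusted p = 0.914) and Serpinb8 of 0.09 (SE 0.22, edgeR adjusted p = 0.892). Of 15 listed clade B serpins 10 were in the table, 6 were tested and 1 rose, while the most abundant after it, Serpinb6a, had 0.13 (SE 0.26, edgeR adjusted p = 0.873). The one that rose was Serpinb9, the inhibitor of granzyme B, at 37.7, 36.5 and 40.3 CPM in MAVS KO libraries, against 26.8, 24.7 and 25.8 CPM in WT libraries. Serpinb9 differed by 0.57 on the log2 scale (SE 0.13, edgeR adjusted p = 0.0487), and the call was lost under 13 of 16 alternatives, with adjusted p up to 0.189. Serpinb9 has close relatives on chromosome 13, and no source used here says how the counting treated reads that fit more than 1 of them.

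The initiating genes of coagulation were all higher in MAVS KO libraries. F3 (ENSMUSG00000028128, chromosome 3, 121723537 to 121735048), the membrane receptor that starts clotting, stood at 31.7, 39.3 and 24.1 CPM in MAVS KO libraries, against 13.9, 7.05 and 17.0 CPM in WT libraries. Every MAVS KO library lay above every WT library, and WT replicate 2 was the lowest of all. F3 had a log2 fold change of 1.32 (SE 0.30, 95% interval 0.66 to 1.98), with 1.02 among the libraries with more genes detected and 2.05 among those with fewer. The call of F3 was lost under 6 of 16 alternatives, including library size alone as the scaling.

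F7 (ENSMUSG00000031443, chromosome 8, 13026034 to 13035809), the protease that binds tissue factor, stood at 309, 198 and 235 CPM in MAVS KO libraries, against 147, 86.9 and 148 CPM in WT libraries. MAVS KO replicate 1 was the highest and WT replicate 2 the lowest, and the groups did not overlap. Its log2 fold change was 0.96 (SE 0.21, 95% interval 0.49 to 1.44), within the sets 1.07 and 1.31. F7 too was no longer called with library size alone, and it was called in none of the 6 fits that left out a library.

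F10 (ENSMUSG00000031444, chromosome 8, 13037308 to 13056676), the protease that the complex of tissue factor and factor VIIa activates, stood at 473, 372 and 423 CPM in MAVS KO libraries, against 278, 228 and 285 CPM in WT libraries. The 6 libraries took the same order for F10 as for F7. F10 differed by 0.68 on the log2 scale (SE 0.13, 95% interval 0.40 to 0.96), within the sets 0.75 and 0.80. Its call was lost under 4 of 16 alternatives, each of them a fit without 1 library.

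F7 and F10 are neighbours on the same strand, with 1498 bases between the end of F7 and the start of F10, and no source used here gives the strand setting of the counting. Next in the row, 4237 bases beyond F10, lies Proz, which encodes a cofactor of an inhibitor of factor Xa. Proz was at 0.0732 to 0.134 CPM in MAVS KO and 0.369 to 0.908 CPM in WT libraries, too low to be tested. The nearest tested genes on either side of the pair did not pass: for Mcf2l the log2 fold change was 0.76 (SE 0.27, edgeR adjusted p = 0.188) and for Pcid2 it was 0.23 (SE 0.17, edgeR adjusted p = 0.580). Per kilobase, F10 was 1.04 to 1.28 times as abundant as F7 in MAVS KO and 1.29 to 1.78 times in WT libraries.

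Compared with its receptor F3, F7 was more abundant per kilobase in every library, by 6.86 to 13.3 times in MAVS KO and 11.8 to 16.8 times in WT libraries. The gene tested nearest to F3 on the side of lower coordinates, the actin-binding protein gene Cnn3, also rose, with 219, 199 and 211 CPM in MAVS KO libraries, against 101, 52.5 and 126 CPM in WT libraries. Cnn3 differed by 1.17 on the log2 scale (SE 0.25, edgeR adjusted p = 0.0364), and its start lies 297 kb from that of F3. Its call was lost without MAVS KO replicate 1, 2 or 3 and without WT replicate 1. On the other side Abcd3 had 0.36 (SE 0.16, edgeR adjusted p = 0.313). Cnn3 was the sole gene of 16 flanking the 9 genes to pass, beside the 2.81% of all genes given above.

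**Figure D3:**
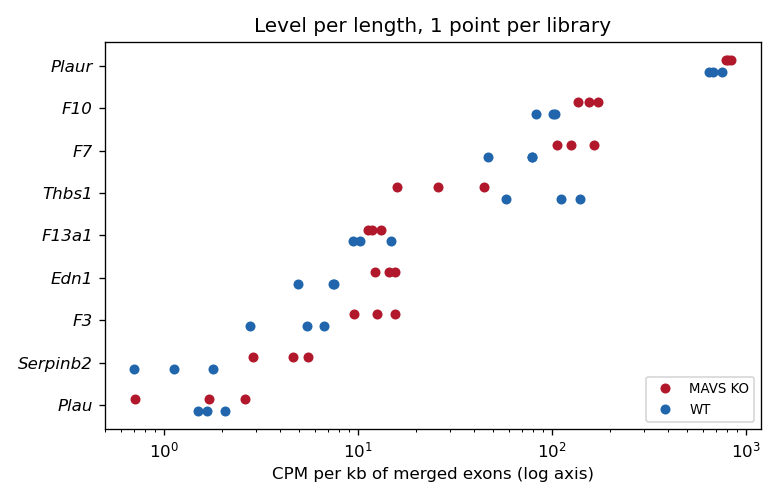
CPM per kilobase of merged exons for the 9 genes on a log axis, MAVS KO libraries drawn above WT libraries for each gene, with 1 point per library. Plaur lies highest, at a mean of 753 over 6 libraries, and Plau lowest, at 1.72.

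Ordered by level per kilobase over all 6 libraries, Plaur (753 CPM per kb) was followed by F10 (126), F7 (101) and Thbs1 (66.1). F13a1 (11.8), Edn1 (10.4) and F3 (8.78) formed a middle group, and Serpinb2 (2.79) and Plau (1.72) came last. The ranges over libraries overlapped for most neighbours in that order; those apart were Plaur from F10 and Thbs1 from F13a1. Plaur stood above 99.5% of all genes tested and Plau above 35.0%.

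Beyond these initiators, the clotting cascade was sparsely expressed. Of 17 listed coagulation factors and protease-activated receptors 13 were in the table and 5 were tested, and none passed. The count was 0 by edgeR, DESeq2 and limma-voom alike, and 0 also at an unadjusted p under 0.05. F2, prothrombin, reached at most 0.838 CPM, and F13b, the carrier subunit of factor XIII, at most 0.0921 CPM. F5, the cofactor of factor X, stood at 8.79 to 12.2 CPM in MAVS KO and 5.52 to 12 CPM in WT libraries. F2rl2, a thrombin receptor, stood at 45.7 to 49.5 CPM in MAVS KO and 50.2 to 52.3 CPM in WT libraries (edgeR adjusted p = 0.768). For Vwf, the platelet-binding factor of endothelium, the log2 fold change was 0.34 (SE 0.23, edgeR adjusted p = 0.558).

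F13a1 (ENSMUSG00000039109, chromosome 13, 36867178 to 37050244, minus strand) encodes the catalytic A subunit of factor XIII, the transglutaminase that cross-links fibrin, and is a known transcript of macrophages and platelets. It stood at 80.2, 76.5 and 88.8 CPM in MAVS KO libraries, against 100.3, 63.5 and 69.7 CPM in WT libraries. WT replicate 1 was the highest of all and the other WT libraries the lowest, so that the MAVS KO values lay between them. The log2 fold change was 0.07 (SE 0.17), with a 95% interval from -0.30 to 0.44. The platelet markers Itga2b and Gp9 reached at most 0.536 and 0.225 CPM, and the 7 of 8 platelet markers in the table summed to 37.2 to 60.6 CPM in MAVS KO and 31.0 to 77.2 CPM in WT libraries, most of it Pf4.

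Of the other transglutaminases, Tgm1 and Tgm2 rose. Tgm1, the transglutaminase known from the skin barrier, stood at 21.6, 19.2 and 14.9 CPM in MAVS KO libraries, against 6.60, 7.21 and 8.02 CPM in WT libraries. Its log2 fold change was 1.35 (SE 0.21, edgeR adjusted p = 0.0164), higher in 3 of 3 MAVS KO libraries than in any WT library, and the call was lost under 2 of 16 alternatives. Tgm2, tissue transglutaminase, a marker of alternatively activated macrophages, stood at 527, 405 and 467 CPM in MAVS KO libraries, against 202, 300.3 and 327 CPM in WT libraries. Its log2 fold change was 0.75 (SE 0.17, edgeR adjusted p = 0.0472), and this call was lost under 8 of 16 alternatives, including library size alone. Whether the differences of Tgm1 or Tgm2 differ from that of F13a1 was not tested.

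Genes of the vitamin K cycle, which modifies factors VII and X before secretion, did not pass. Its gamma-carboxylase Ggcx had a difference on the log2 scale of -0.49 (SE 0.23, edgeR adjusted p = 0.324), and of the 6 listed genes of this cycle and of transglutaminases 5 were tested, 2 rose (Tgm1 and Tgm2) and 3 did not pass.

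Among the anticoagulants, Procr rose. Procr, the endothelial protein C receptor, which dendritic cells and other leukocytes also carry, stood at 57.2, 54.1 and 52.5 CPM in MAVS KO libraries, against 34.3, 21.5 and 34.4 CPM in WT libraries. The log2 fold change was 0.86 (SE 0.18, edgeR adjusted p = 0.0364), with 0.73 and 1.29 within the sets, and its call was lost under 7 of 16 alternatives, including each fit without 1 library. Procr and Tgm2 both lie on chromosome 2, 24.5 and 26.9 Mb from Mavs. Of the 11 listed anticoagulants 5 were tested, and the other 4 did not pass in edgeR. DESeq2 called 2 (Procr higher and Pros1 lower) and limma-voom 1 (Procr). Pros1, protein S, stood at 26.4 to 32.2 CPM in MAVS KO and 37.6 to 59.6 CPM in WT libraries (log2 fold change -0.63, SE 0.19, edgeR adjusted p = 0.125). Pros1 was called lower by DESeq2 (adjusted p = 0.0371), with library size alone (edgeR adjusted p = 0.0496) and without the filter on low counts (edgeR adjusted p = 0.00920), against up to 0.316 under the other alternatives, and its log2 fold change was -0.39 without WT replicate 1. Thbd, thrombomodulin, had 0.45 (SE 0.28, edgeR adjusted p = 0.504), and Tfpi, the inhibitor of the tissue factor complex, -0.24 (SE 0.33, edgeR adjusted p = 0.804).

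Thbs1 (ENSMUSG00000040152, chromosome 2, 118111876 to 118127133) was the sole gene of the 9 called lower in MAVS KO libraries. It encodes thrombospondin-1, a matrix glycoprotein of platelets and macrophages that binds CD36 and CD47 and activates latent TGF-beta. It stood at 96.4, 272 and 157 CPM in MAVS KO libraries, against 352, 849 and 681 CPM in WT libraries. Both groups spread more than 2-fold, yet the highest MAVS KO library lay below the lowest WT library. Thbs1 had a log2 fold change of -1.84 (SE 0.37, 95% interval -2.67 to -1.01), within the sets -2.34 and -2.04. Its call was lost under 5 of 15 alternatives: with robust dispersion estimation, and without WT replicate 2 or 3 or MAVS KO replicate 1 or 3. A lincRNA annotated on the opposite strand of Thbs1 held 1 count in all 6 libraries together.

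Thbs1 lies on the same chromosome as the altered locus. Its start lies 13.1 Mb from that of Mavs, and of the 206 tested genes within 15 Mb of Mavs (Mavs left out, Thbs1 included) 11.7% were called, 12 higher and 12 lower, against 2.66% of the other 12373 genes. Of the 39 other genes tested within 2 Mb of Thbs1, 1 was called higher and 6 lower, or 17.9%. The nearest tested genes, Rasgrp1 and Gpr176, did not pass, with log2 fold changes of -0.25 (SE 0.18, edgeR adjusted p = 0.586) and -1.03 (SE 0.91, edgeR adjusted p = 0.661). By size of change Thbs1 ranked 8 of the 206. A difference carried by DNA around the altered Mavs locus and a difference that follows from loss of MAVS cannot be told apart for Thbs1. The other 8 genes lie on other chromosomes, and with the genes near Mavs left out 5 of them were called.

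**Figure D4:**
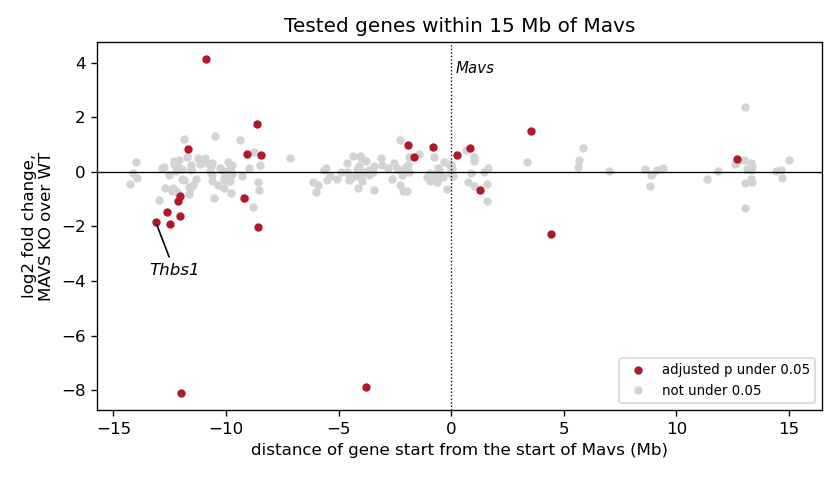
Log2 fold change, MAVS KO over WT, of the 206 tested genes within 15 Mb of Mavs against the distance of their start from that of Mavs, with genes past the threshold in red. Thbs1 lies at -13.1 Mb and -1.84, among other called genes that went both ways.

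No gene of the thrombospondin list passed in the fit over all genes without covariates. Of 9 listed genes 6 were tested, 0 were called by edgeR, DESeq2 or limma-voom, and 2 (Cd36 and Itgb3) had an unadjusted p under 0.05. Cd36, a scavenger receptor for thrombospondin-1, stood at 239.8, 172 and 150.3 CPM in MAVS KO libraries, against 156, 67.4 and 130.0 CPM in WT libraries (log2 fold change 0.67, SE 0.27, edgeR adjusted p = 0.251). The groups of Cd36 overlapped. With the set of libraries as a covariate, the alternative chosen after seeing the data, Cd36 was called higher (log2 fold change 1.00, SE 0.15, edgeR adjusted p = 0.0105). Cd36 and Itgb3 were also called without the filter on low counts, whereas leaving out WT replicate 2 gave 0.39 for Cd36 (edgeR adjusted p = 0.426). Cd47, the second receptor, had 0.15 (SE 0.10, edgeR adjusted p = 0.511) and the integrin chain Itgb1 0.07 (SE 0.09, edgeR adjusted p = 0.776).

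Edn1 (ENSMUSG00000021367, chromosome 13, 42301476 to 42307990), the precursor of endothelin-1, stood at 31.2, 33.3 and 26.3 CPM in MAVS KO libraries, against 16.0, 10.6 and 16.2 CPM in WT libraries. The groups were clearly apart, and the libraries of Edn1 took the same order as those of F3. Edn1 had a log2 fold change of 1.09 (SE 0.20, 95% interval 0.65 to 1.53), within the sets 0.94 and 1.44. Its call was lost under 3 of 16 alternatives, the fits without MAVS KO replicate 1, 2 or 3. Neither flanking gene passed: Hivep1 had 0.40 (SE 0.23, edgeR adjusted p = 0.441) and Phactr1 0.41 (SE 0.95, edgeR adjusted p = 0.890).

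The converting enzymes of endothelin were present and its receptors nearly were not. Ece1, which cuts the precursor, stood at 43.6, 43.6 and 54.5 CPM in MAVS KO libraries, against 50.3, 53.7 and 94.6 CPM in WT libraries (log2 fold change -0.49, SE 0.23, edgeR adjusted p = 0.326). The value of Ece1 rested on WT replicate 3, with -0.14 (SE 0.16) without it, and Ece1 was called lower without the filter on low counts (edgeR adjusted p = 0.0368). Ece2 had 0.03 (SE 0.13, edgeR adjusted p = 0.955). Ednra reached at most 0.225 CPM, and Ednrb stood at 1.24, 0 and 1.68 CPM in MAVS KO and 0.296, 0 and 0.875 CPM in WT libraries (edgeR adjusted p = 0.692). Of 8 listed genes of the system 3 were tested; 0 were called by edgeR, DESeq2 or limma-voom, and 0 had an unadjusted p under 0.05 in edgeR.

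Markers of other cell types that make these proteins are given as values. Of endothelium, the best-known source of Edn1, the 7 of 8 markers in the table summed to 106 to 210.1 CPM in MAVS KO and 41.8 to 88.0 CPM in WT libraries. Nearly all of that sum was Flt1, which rose, and Pecam1, both of which myeloid cells also make. Of 3 endothelial markers tested, edgeR, DESeq2 and limma-voom each called 1 (Flt1). In edgeR 2 had an unadjusted p under 0.05, Flt1 and Pecam1 (log2 fold change 0.73, SE 0.26), both higher. Pecam1 was also called without the filter on low counts. The defining marker Cdh5 was at 0 in all 3 MAVS KO libraries and at most 0.246 CPM in WT libraries, and Tek and Tie1 reached at most 0.591 and 0.427 CPM. Kdr stood at 1.03 to 1.91 CPM in MAVS KO and 2.44 to 2.78 CPM in WT libraries (edgeR adjusted p = 0.425). The 7 neutrophil markers summed to 93.0 to 98.7 CPM in MAVS KO and 55.5 to 57.2 CPM in WT libraries, with Mmp8 the sole one to pass (higher). Csf3r stood at 22.3 to 25.9 CPM in MAVS KO and 16.6 to 24.9 CPM in WT libraries. For S100a8 the ranges were 5.17 to 9.79 and 4.32 to 5.82 CPM, and for Cxcr2 1.98 to 3.76 and 0.921 to 4.58 CPM. S100a9, Ly6g and Retnlg reached at most 0.148, 0.0493 and 0.112 CPM. Markers of fibroblasts, a known source of F3 and Thbs1, summed to 15 to 49.5 CPM in MAVS KO and 18.5 to 35.9 CPM in WT libraries, and none of the 5 tested passed (0 by edgeR, DESeq2 and limma-voom, and 0 at an unadjusted p under 0.05). The 5 tumour epithelial markers summed to 419 to 676 CPM in MAVS KO and 363 to 541 CPM in WT libraries, nearly all of it Cdh1. Epcam stood at 5.17 to 7.91 CPM in MAVS KO and 6.03 to 16.2 CPM in WT libraries, and Krt8, Krt18 and Krt19 reached at most 0.138 CPM. The 10 macrophage and monocyte markers summed to 27491 to 35140.2 CPM in MAVS KO and 26139.8 to 31167 CPM in WT libraries, most of it Lyz2. Of these 10, 0 passed in edgeR and 0 in limma-voom, 5 had an unadjusted p under 0.05 in edgeR, all higher (C1qa, C1qb, C1qc, Mrc1 and Fcgr1), and DESeq2 called 3 of them. These 5 stood higher in every MAVS KO library than in any WT library, beside 11.2% of all genes tested. For Fcgr1 the ranges were 151 to 207 and 106 to 140.0 CPM, and for Mrc1 313 to 549.9 and 243 to 293 CPM. Of the 10, 7 had a log2 fold change above 0. For the Gata6-dependent macrophages of the peritoneum, known for F5 and F10, 4 of 7 markers were tested and 0 passed in edgeR (1 at an unadjusted p under 0.05, 1 by DESeq2, 0 by limma-voom), and the markers summed to 8.64 to 12.9 CPM in MAVS KO and 13.3 to 16.6 CPM in WT libraries. The part of these cell types in the differences of the 9 genes was not tested.

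**Figure D5:**
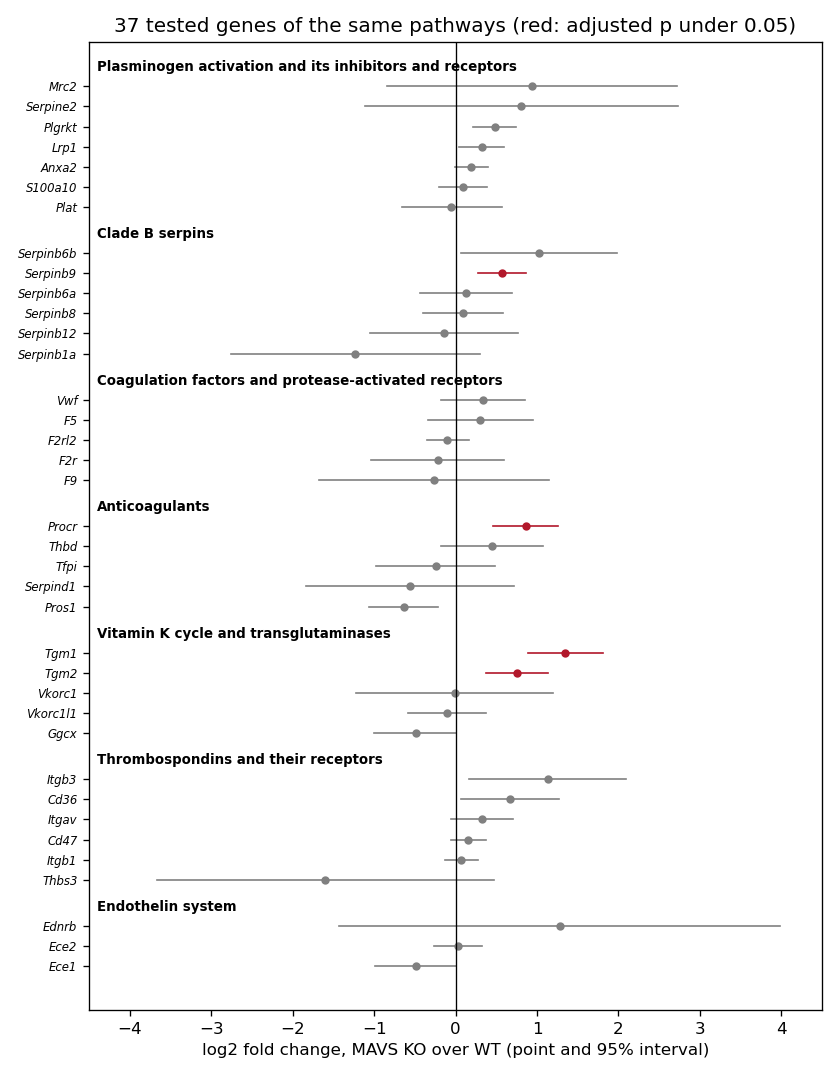
Log2 fold change, MAVS KO over WT, with the 95% interval of the edgeR fit for 37 of the 38 tested genes of the same pathways outside the 9, grouped by list. The 4 genes past the threshold, Tgm1, Procr, Tgm2 and Serpinb9, are in red and lie above 0.

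Across all lists of related genes, 77 were listed, 65 were in the table and 38 were tested; 4 rose, 0 fell and 34 did not pass in edgeR. Of the 38, DESeq2 called 6, with Plgrkt higher and Pros1 lower beside those 4, and limma-voom called 3 (Procr, Tgm1 and Tgm2). Of the 38, 10 had an unadjusted p under 0.05 in edgeR, 9 higher and 1 lower. Over all 12580 genes tested edgeR called 2.81%, while DESeq2 called 772 genes and limma-voom 319. The share of all genes at an unadjusted p under 0.05 is not given here, so nothing is read from those 10. The median log2 fold change of the 38 was 0.11, beside -0.0022 over all genes, with 23 of 38 above 0. The count also rested on single libraries, with 0 called without MAVS KO replicate 1 or 2, 1 without MAVS KO replicate 3, 1 without WT replicate 1 or 2, and 2 without WT replicate 3. In those fits 36 to 277 of all genes were called, and 9 to 12 of the related genes had an unadjusted p under 0.05 in edgeR. Without the filter on low counts 9 were called, with Pros1 and Ece1 lower, beside 924 of all 26519 genes. Without the genes near Mavs 2 were called, although all 4 called in the main fit lie outside that region. Over all genes the split of calls moved with the scaling, from 222 higher and 132 lower with TMM to 102 higher and 341 lower with library size alone, where the median log2 fold change of all genes was -0.17.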

How the data were processed

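The authors deposited 1 table of unnormalised counts for the 6 samples of tumour dendritic cells, with Ensembl identifiers. Tools named in the submitters' processing notes are HISAT2 (also HISAT), HTSeq and DESeq2, with the mm10 build and no role or setting; no source used here gives the annotation release or the strand setting. Symbols, positions (mm10) and merged exon lengths came from GENCODE M21, which matched 26383 of 26519 identifiers; promoters came from RefSeq (GRCm38.p6).

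Counts were tested with edgeR 4.0.16 under R 4.3.3. Genes passed filterByExpr at a minimum count of 10 and a minimum total of 15, which left 12580; the steps were TMM, a quasi-likelihood F test with no covariate, Benjamini-Hochberg adjustment, threshold 0.05. The procedure was tested on simulated data. The 9 genes and all lists were chosen with earlier results of these data known. Named genes are the 9, Mavs, related genes past the threshold, the 3 most abundant tested genes of each list and flanking genes past the threshold; Plgrkt, Plg, Plat, F2, F13b, Proz, Tfpi, Itgb3, Ednra and the flanking genes that did not pass were added after their values were seen. Flanking genes are the nearest tested protein-coding genes by start. Replicates differed beyond sampling noise, with a chi-square of 14.9 to 34.8 per degree of freedom between pairs of the same group. Alternatives used DESeq2 1.42.0, limma 3.58.1, other scalings and filters, a replicate block, and each library left out. The values of 1 related gene that was tested are not reported here.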

Additional observations from a re-analysis of the deposited data

How the results depend on the processing

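Directions of the 6 called genes were kept under every alternative run. Since their groups did not overlap, the direction could hardly change, and nothing is read from it. Of 508 values of named genes under alternatives, 0 reversed a call, 65 lost a call and 6 gained one. The 508 include genes not called in the main fit, which had no call to lose. Calls were lost under 6 of 16 alternatives for Serpinb2 and for F3, and under 7 for F7. For F10 it was 4 of 16, for Edn1 3 of 16 and for Thbs1 5 of 15. With library size alone 102 genes were called higher and 341 lower, and 2 related genes were called. Without a filter on low counts 924 genes were called (531 higher, 393 lower) and 9 related genes. The DESeq2 Wald test called 772 (433 higher, 339 lower). Leaving out the genes near Mavs left 2 related genes called, although none of those called in the main fit lies in that region. Tgm2 and Serpinb9 kept log2 fold changes of 0.75 and 0.57 and edgeR unadjusted p of 0.00126 and 0.00135. Their edgeR adjusted p moved from 0.0472 and 0.0487 in the main fit to 0.0502 and 0.0518. Leaving out 1 library gave 36 to 277 genes called, 22 to 181 higher and 9 to 96 lower, 0 to 4 of the 9 genes, 0 to 2 related genes and 0 to 1 flanking genes. Why the counts moved with single libraries was not tested. Replicate numbers are shared between groups, but the labels do not pair them and same-numbered libraries did not deviate together (correlations 0.0383, 0.0866 and -0.0428). With a replicate block 414 genes, 6 of the 9 genes and 3 related genes were called. With the split by genes detected as a covariate, added after seeing the data, 361 genes and 5 of the 9 were called. At 25 to 195 counts per library, Plau and Serpinb2 had the fewest counts of the 9 genes.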
